A study of Mus musculus with 2 samples.

Results

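Nuclear hormone receptors are transcription factors, many of which are switched by small fat-soluble molecules, and 39 genes of this superfamily were followed here in the hindbrain of the mouse embryo. The genes were chosen by symbol from a list of the family, and all 39 had an entry among the 43346 Ensembl genes measured. Retinoic acid receptors were not among them, and the 3 retinoid X receptors were treated as their partners. RNA came from hindbrain, the part of the brain that gives rise to the medulla, pons and cerebellum, dissected at embryonic age 12.5 days from healthy B6NCrl mice, with males and females pooled. Replicate 1 was a pool of 120 embryos and replicate 2 a pool of 88 embryos, and no treatment, transgene or mutation is named in the labels. Both pools belong to 1 group, so the data give levels with their replicate error and a comparison of 2 libraries, not of conditions. Values of a pool average over embryos, and dissected tissue holds blood, vessels and covering membranes beside neural cells, so fewer cells of a type and less RNA per cell cannot be told apart.

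A typical nuclear receptor has a DNA-binding domain of a pair of zinc fingers and a ligand-binding domain that exchanges corepressors for coactivators when hormone binds. Some members are classic hormone receptors, some sense sterols, fatty acids or foreign compounds, and many are orphans with no established natural hormone. In the developing nervous system the family is best known for the COUP transcription factors in regional patterning and neuron identity, for thyroid hormone control of maturation, and for Nr4a2 in dopamine neurons.

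Levels are given as TPM, an abundance corrected for transcript length and scaled to 1 fixed total per library, with mean ± SD over both libraries (n = 2) where a single value is printed. Replicate 1 held 31633169 expected counts, that is, estimated RNA fragments assigned to genes, and replicate 2 held 29766460. The tissue label was checked with 8 genes of hindbrain identity, of which 7 reached 1 TPM in both libraries. Their summed levels were 199 and 253 TPM in replicates 1 and 2. Of 6 forebrain markers, which summed to 30.3 and 30.2 TPM, 2 reached 1 TPM in both libraries. These were Lhx2 at 25.5 and 25.0 TPM and Emx2 at 2.26 and 3.86 TPM. Summed markers of several other cell types differed between the libraries, as those of hindbrain identity did. Skeletal muscle markers stood at 56.0 and 267 TPM, and inner ear and epithelial markers at 339 and 161 TPM. Erythroid markers stood at 19346 and 15373 TPM, and meningeal and mesenchymal markers at 1344 and 1748 TPM.

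Of the 39 receptor genes, 21 (53.8%) reached at least 1 TPM in both libraries, the threshold used here for detection. Over all 21474 protein-coding genes the share detected was 63%, and over all Ensembl genes it was 35.5%. The median receptor stood at 1.55 and 1.22 TPM in replicates 1 and 2, against medians of 5.87 and 6.07 TPM for protein-coding genes. A few genes carried most of the RNA of these 39 members. The 6 highest members were Nr2f2, Nr2f1, Nr1h2, Thra, Nr2f6 and Nr2c2. They made up 77.0% of the members' summed TPM in replicate 1 and 74.9% in replicate 2, of totals of 447 and 421 TPM. These totals leave out the retinoid X receptors, of which Rxrb stood at 53.5 and 53.9 TPM, and the retinoic acid receptors. In all, 10 genes reached 10 TPM in both libraries, 11 more were detected below that level, 2 lay on either side of 1 TPM and 16 stayed below 1 TPM in both. Of 38 pairs of neighbours in the ranking by mean, 16 did not overlap between libraries and 22 did. Nr2f1, ranked after Nr2f2 by its mean, spanned 50.9 to 68.3 TPM and so overlapped Nr1h2, Thra and Nr2f6. It was above Nr1h2 and Thra in replicate 1 and below them in replicate 2, so its place beside them is not settled. It was above Nr2f6 in both libraries, and Nr1h2, Thra and Nr2f6 kept that order in both.

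**Figure D1:**
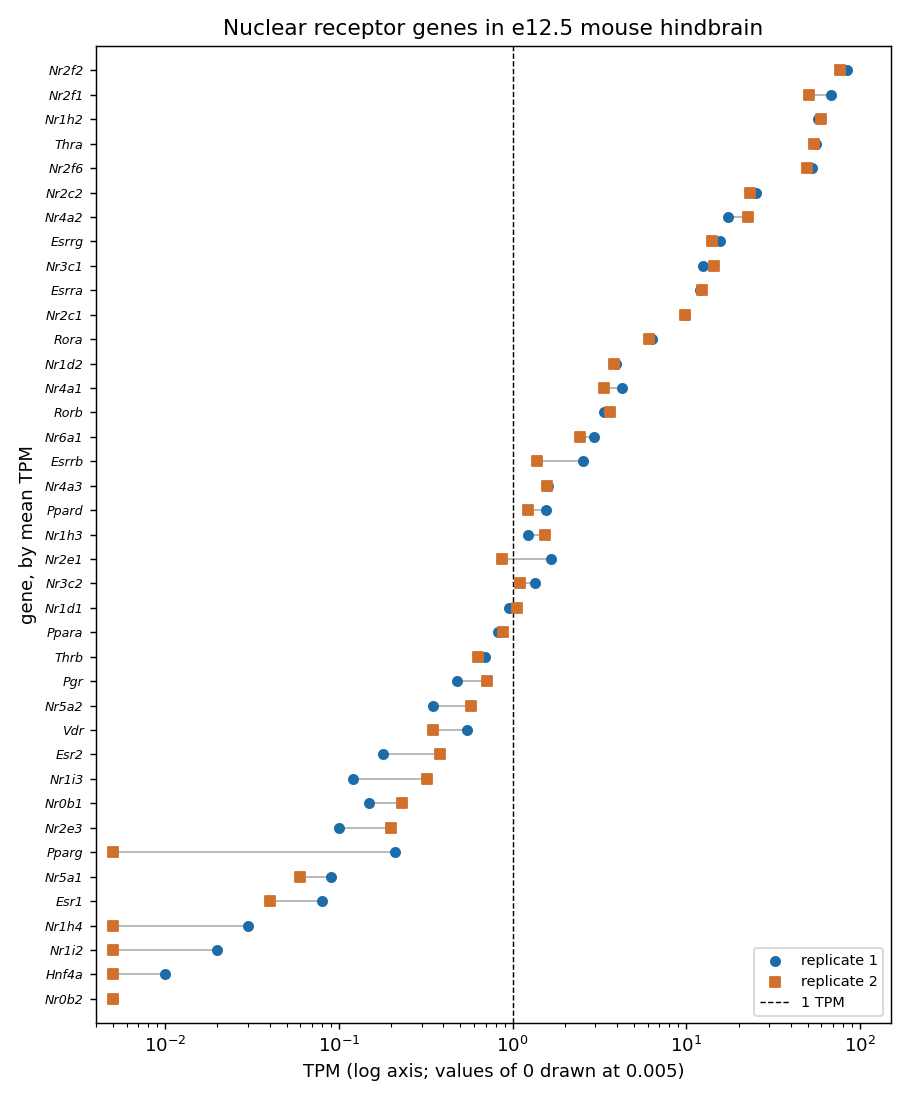
TPM (log axis) of the 39 nuclear receptor genes in replicate 1 (circles) and replicate 2 (squares), ordered by mean, with a grey line joining the values of 1 gene and a dashed line at the detection threshold of 1 TPM. Both points lie at or above the threshold for 21 genes, the first 10 genes stand at 10 TPM or more in both libraries, and the points of a gene spread farther apart toward the bottom.

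The orphan receptors of the NR2 group were the largest share of the 39 members' RNA, and 5 of these 7 genes were detected. They held 54.2% of the members' summed TPM in replicate 1 and 50.3% in replicate 2, without the retinoid X receptors in the total. Nr2f2 (COUP-TFII, chromosome 7, 70351944 to 70366735, minus strand of mm10) was the highest of the 39 members, with 83.7 TPM in the first library and 76.7 TPM in the second. Nr2f1 (COUP-TFI, chromosome 13, 78188973 to 78199757, minus strand) stood at 68.3 and 50.9 TPM. These paralogues are regulators of neural patterning and of vessel and neuron identity, and the lower of the Nr2f2 values was above the higher of the Nr2f1 values. Nr2f6 (EAR2, chromosome 8, 71374123 to 71381960, minus strand), the COUP relative needed for the noradrenergic locus coeruleus of the hindbrain, was at 53.1 and 49.9 TPM. Nr2c2 (TR4, chromosome 6, 92091390 to 92174294, plus strand), a testicular orphan receptor, was at 25.3 and 23.3 TPM, and its paralogue Nr2c1 (TR2) was at 9.86 and 9.83 TPM. Nr2e1 (Tlx), known as a regulator of forebrain and retinal progenitors, stood at 1.66 and 0.87 TPM, on either side of the threshold. Nr2e3, the photoreceptor member, had 3 and 1 counts. The 6 photoreceptor markers summed to 2.76 and 1.75 TPM.

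The DNA contact segment of the first zinc finger, the P-box, is shown because its residues take part in the choice of DNA half-site, so it sorts the expressed receptors into classes. It lies in 6 codons (18 bases), printed 5′ to 3′ on the coding strand from the GENCODE M21 transcript of each gene. The codons at positions 2, 3 and 6, whose residues differ between most of the receptor classes, are in capitals.
Nr2f2: tgcGAGGGCtgcaagAGC
Nr2f1: tgcGAGGGCtgcaaaAGT
Nr2f6: tgcGAGGGCtgcaagAGT
Nr1h2: tgtGAAGGCtgcaaaGGC
Nr2c2: tgtGAAGGTtgcaaaGGT
Nr4a2: tgtGAGGGCtgcaaaGGT
Esrrg: tgtGAAGCCtgcaagGCA
Esrra: tgtGAGGCCtgcaaaGCC
Esrrb: tgcGAGGCTtgcaagGCG
Nr3c2: tgcGGCAGCtgcaaaGTC
Pgr: tgtGGGAGCtgcaagGTC
Nr2e1: tgcGACGGCtgctccGGA
A finger pattern of this kind was found in 34 of the 36 members searched. Thra, Nr3c1 and Nr5a1 were not searched, so the classes are given by their members and not by their share of the RNA. The pattern was not found in Nr0b1 and Nr0b2, which are known to lack a classical DNA-binding domain. Grouped by the residues that all 6 codons encode, the Nr2f2 class held 3 genes, Nr2f2, Nr2f1 and Nr2f6. The Nr1h2 class was the broadest among the members searched, with 20 genes in 16 different codon spellings. The Esrrg class held the 3 estrogen-related receptors. Nr3c2 and Pgr shared a class, as did the estrogen receptors Esr1 and Esr2. The 3 COUP genes thus encoded 1 contact residue set with 3 codon spellings. All 3 were among the 5 highest of the 39 members, which do not include the retinoid X receptors.

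The 198 bases that encode the finger region were compared base by base, without gaps, among 34 members. Nr2f2 and Nr2f1 were the closest pair. The stretch is printed for both to show how alike they are, and the capitals mark the bases that differ.
Nr2f2: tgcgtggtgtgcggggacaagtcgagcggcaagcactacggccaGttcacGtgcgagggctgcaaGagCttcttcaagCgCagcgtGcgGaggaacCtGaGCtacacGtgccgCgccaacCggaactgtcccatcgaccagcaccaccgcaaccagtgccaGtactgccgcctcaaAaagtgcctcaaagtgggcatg
Nr2f1: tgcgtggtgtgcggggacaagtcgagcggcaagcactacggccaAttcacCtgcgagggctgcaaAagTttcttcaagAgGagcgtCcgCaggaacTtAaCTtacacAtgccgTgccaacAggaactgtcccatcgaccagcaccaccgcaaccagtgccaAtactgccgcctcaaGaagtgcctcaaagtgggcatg
Of the 198 bases, 181 were identical (91.4%) and 17 differed, against a median of 52.5% identity over the 561 pairs of those members. Without gaps, an inserted or lost codon puts the bases after it out of register, so the median can understate likeness. The paralogues Nr1h2 and Nr1h3 also stood at 52.5% on this measure. The next pairs were Esrrg with Esrrb at 83.8% and Nr2f2 with Nr2f6, Esrra with Esrrb and Esr2 with Esr1, all at 83.3%. Among the 36 members compared, a run of 50 or more identical bases was shared by 2 pairs, Nr2f1 with Nr2f2 and Nr2f2 with Thrb. The authors' posterior SD of the count, a measure of how uncertain the assignment of fragments was, came to 0 in both libraries for Nr2f2, against counts of 5748 and 4816. For Nr2f1 it was 0.3 and 0.61 fragments against counts of 3176 and 2288, a small fraction of either count.

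Thyroid hormone receptors contributed 12.6% and 13.1% of the summed TPM of the 39 members, nearly all of it from Thra. Thra (chromosome 11, 98740638 to 98769006, plus strand), the main thyroid hormone receptor gene of brain, stood at 55.8 and 54.6 TPM. Thrb, the paralogue known for roles in hearing, retina and the pituitary feedback loop, stood at 0.69 and 0.63 TPM. The genes that supply the hormone were unevenly present. Of 8 genes of thyroid hormone transport and deiodination, 6 were detected. Transthyretin (Ttr), a hormone carrier of choroid plexus and liver, was the highest at 323 and 384 TPM. Of the 6 liver markers, which include Ttr, 3 were detected, with Apoa1 at 1.40 and 1.47 TPM and Apoa2 at 2.20 and 3.39 TPM. Afp had 4 and 5 counts, and Alb and Serpina1a had 0 in both libraries. The part of liver cells in the Ttr level was not tested. Crym, which encodes a cytosolic binding protein for the hormone, was at 65.2 and 26.6 TPM. The cell-membrane transporter Slc16a10 was detected at 7.96 and 9.31 TPM. Of the deiodinases, Dio1 had 0 counts in both libraries, Dio2, which activates the hormone, stood at 0.23 and 0.38 TPM, and Dio3, which inactivates it, stood at 1.27 and 1.12 TPM. Of 4 genes known to respond to the hormone, 2 were detected, Me1 at 18.6 and 22.0 TPM and Klf9 at 1.95 and 1.52 TPM. The other two, Hr at 0.69 and 0.89 TPM and Thrsp at 0.58 TPM in each library, were below the threshold.

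Among the 10 sensors of sterols, lipids, vitamins and foreign compounds, 1 gene held nearly all the RNA. Nr1h2 (liver X receptor beta, chromosome 7, 44549616 to 44553951, minus strand), an oxysterol sensor of cholesterol balance, stood at 57.6 and 59.5 TPM. The 10 sensors together summed to 62.1 and 63.8 TPM. The paralogue Nr1h3 (liver X receptor alpha) was at 1.22 and 1.53 TPM. All 7 genes of the liver X receptor target list were detected, led by the lipid carrier Apoe at 184 and 199 TPM, then Srebf1 at 41.1 and 38.4, Lpcat3 at 36.9 and 39.2 and Abcg1 at 20.8 and 18.2 TPM. The lowest of them was the desaturase gene Scd1 at 6.37 and 8.07 TPM. All 4 oxysterol enzymes were detected at low levels, from Cyp46a1, the neuronal cholesterol 24-hydroxylase, at 5.77 and 5.49 TPM, through Ch25h at 4.93 and 4.47 and Cyp27a1 at 2.58 and 3.76, to Cyp7b1 at 1.94 and 2.90 TPM.

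The fatty acid sensors of the PPAR group were low. Ppard, the broadly expressed member, was detected at 1.55 and 1.22 TPM, and Ppara, the driver of fatty acid oxidation in liver, stood at 0.83 and 0.88 TPM. Pparg, the adipocyte regulator, had 7 counts in replicate 1 and 0 in replicate 2. Of 8 PPAR target genes, 7 were detected, led by the lipid droplet gene Plin2 at 50.7 and 50.4 TPM. Angptl4 stood at 21.8 and 20.6 TPM, Cpt1a at 10.5 and 10.8 TPM, and the lowest, the adipocyte gene Fabp4, at 1.06 and 0.94 TPM. Vdr, the vitamin D receptor, stood at 0.55 and 0.35 TPM. Of 4 vitamin D enzymes 2 were detected, Cyp27a1 and Cyp2r1 (1.00 and 1.79 TPM). Cyp27b1, which makes the active hormone, had 1 and 8 counts, and the breakdown enzyme gene Cyp24a1 had 1 and 5. The liver and gut sensors were at or near 0. The bile acid receptor Nr1h4, the xenobiotic receptor Nr1i2 and Hnf4a each had 1 count in replicate 1 and 0 in replicate 2. Nr1i3 stood at 0.12 and 0.32 TPM. All 5 bile acid and xenobiotic target genes (Cyp7a1, Cyp8b1, Abcb11, Cyp3a11 and Cyp2b10) had 0 counts in both libraries.

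The NR4A receptors, orphans induced by neuronal activity and growth signals, were all detected. Nr4a2 (Nurr1, chromosome 2, 57106830 to 57124003, minus strand), needed for dopamine neurons of the midbrain, stood at 17.4 and 22.7 TPM, the higher value in replicate 2. Nr4a1 (Nur77) was lower at 4.28 and 3.35 TPM and Nr4a3 (Nor1) at 1.61 and 1.58 TPM. The 3 estrogen-related receptors, orphans that control mitochondrial and energy genes, were also all detected. Esrrg (chromosome 1, 187608791 to 188214885, plus strand) stood at 15.7 and 14.0 TPM and Esrra at 11.9 and 12.3 TPM. Esrrb (chromosome 12, 86361117 to 86521628, plus strand), known from pluripotent cells and from the inner ear, was at 2.56 and 1.38 TPM. Ppargc1b, a coactivator with which they are known to work, was the lowest of the coactivator list at 1.53 and 1.78 TPM. Its paralogue Ppargc1a stood at 3.70 and 4.67 TPM.

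Receptors for steroid hormones were few apart from the glucocorticoid receptor. Nr3c1, which encodes it, stood at 12.5 and 14.5 TPM, and Nr3c2, the mineralocorticoid receptor, at 1.34 and 1.11 TPM. The sex steroid receptors were all below 1 TPM: Pgr at 0.48 and 0.71, Esr2 at 0.18 and 0.38 and Esr1 at 0.08 and 0.04 TPM. Esr1 rested on 6 and 4 counts. Of 8 genes of steroid synthesis and breakdown, 3 were detected, Hsd11b2, which inactivates glucocorticoids, at 20.1 and 19.6 TPM, Srd5a1 at 13.2 and 12.6 TPM and Star at 2.08 and 1.96 TPM. Hsd3b1 stood at 0.57 and 0.61 TPM, and Cyp19a1, the aromatase that makes estrogen, had 0 counts in both libraries. All 6 glucocorticoid response genes were detected, with Tsc22d3 (Gilz) highest at 97.0 and 102 TPM. Dusp1 at 26.9 and 31.1, Sgk1 at 26.8 and 27.3 and Fkbp5 at 25.0 and 21.8 TPM followed, and Zbtb16 was lowest at 3.19 TPM in each library. These genes answer to other signals too, so their levels do not measure hormone action.

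The clock-linked receptors bind ROR elements, where REV-ERB proteins repress and ROR proteins activate. Rora, also required for Purkinje cells of the cerebellum, stood at 6.31 and 6.09 TPM, Nr1d2 (REV-ERB beta) at 3.93 and 3.82 and Rorb at 3.36 and 3.64 TPM. Nr1d1 (REV-ERB alpha) lay across the threshold at 0.96 and 1.06 TPM. Of 11 clock genes 10 were detected, led by Cry2 at 31.0 and 32.2 and Cry1 at 29.8 and 30.1 TPM. Per1 at 7.67 and 9.02 and Arntl at 6.77 and 6.81 TPM came next, and Npas2 was lowest at 0.13 and 0.50 TPM. Nr6a1 (germ cell nuclear factor), a repressor of pluripotency genes, was at 2.96 and 2.44 TPM. Its relatives Nr5a2 (0.35 and 0.58 TPM) and Nr5a1 (5 and 3 counts), the steroidogenic factors, were below the threshold, as were the NR0 genes Nr0b1 (0.15 and 0.23 TPM) and Nr0b2. Nr0b2 was the only member with 0 counts in both libraries, where a limit of 3 counts corresponds to 0.153 and 0.166 TPM. Such limits cover counting error only.

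The shared machinery stood at higher levels than the median receptor, with list medians of 9.13 and 8.94 TPM for retinoid X receptors, 24.0 and 23.1 for coactivators and 31.4 and 33.3 TPM for corepressors. All 3 retinoid X receptors, the partners with which thyroid, sterol and fatty acid receptors pair on DNA, were detected, with Rxrb at 53.5 and 53.9 TPM, Rxra at 9.13 and 8.94 and Rxrg at 6.82 and 6.50 TPM. All 12 coactivator genes matched of a list of 13 were detected, led by Ncoa4 at 74.1 and 75.3, Med1 at 60.4 and 68.4, Carm1 at 59.5 and 61.0 and Crebbp at 34.6 and 33.4 TPM. All 9 corepressor genes were detected. Ncor1, the scaffold that unliganded thyroid receptors bind, stood at 163 and 161 TPM and its deacetylase Hdac3 at 117 and 113 TPM. Gps2 was at 73.4 and 68.4, Tbl1x at 48.7 and 50.5 and the lowest, Tbl1xr1, at 16.7 and 17.3 TPM. The summed corepressor list came to 528 and 526 TPM and the coactivator list to 331 and 342 TPM. The 9 genes of the steroid receptor chaperone list, which includes co-chaperones, had a higher median still, 354 and 333 TPM. Hspa8 stood at 2113 and 2112, Hsp90ab1 at 1185 and 1069, Hsp90aa1 at 878 and 812 and Ptges3 at 404 and 415 TPM, and Fkbp5 was lowest.

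**Figure D2:**
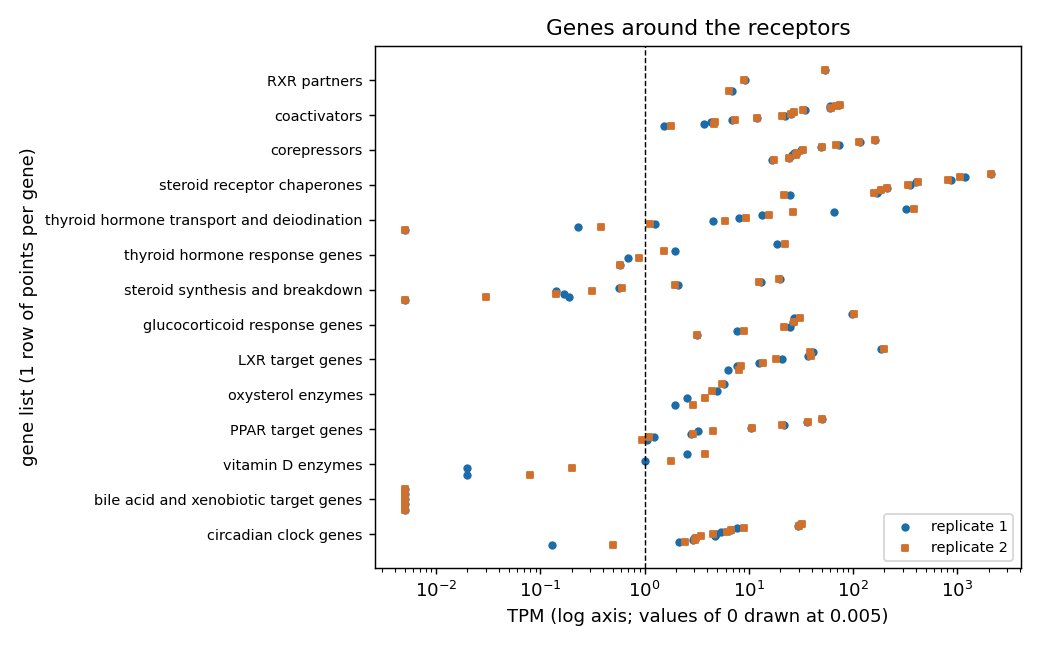
TPM (log axis, values of 0 drawn at 0.005) of the genes in 14 lists around the receptors, 1 list per row, with replicate 1 as circles, replicate 2 as squares and the detection threshold of 1 TPM dashed. Corepressors and chaperones all lie above the threshold, from 16.7 to 2113 TPM, while all 5 bile acid and xenobiotic targets sit at 0.

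The libraries were compared gene by gene to learn how far receptor levels differed between the pools. An exact binomial test, which allows for counting error only, was run on rounded counts scaled by TMM (a scaling that assumes most genes do not differ), with Benjamini-Hochberg adjustment over 19209 genes. Of the 32 receptor genes with at least 10 counts summed over the libraries, 7 passed an adjusted p of 0.05, 5 lower and 2 higher in replicate 2. Among all genes tested 20.4% passed (9.68% lower, 10.7% higher), and the receptors' 21.9% lay near that background. The receptors' median log2 ratio of replicate 2 over replicate 1 was -0.04, against -0.002 over all genes, and 25 of the 32 lay within 0.5 of 0 on the log2 scale. With the spread between the libraries added (edgeR exact test with a common dispersion equal to a coefficient of variation of 9.02%), 1 receptor gene passed, against 1.57% of all genes (0.625% lower in replicate 2). In that test 3 receptor genes had an unadjusted p below 0.05. The share of all genes below that unadjusted cut is not given here, so this count is not a result about the receptors.

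Esrrb was the receptor gene with an adjusted p below 0.05 in both the binomial and the edgeR exact test, each of which compares 1 library with 1 library. It had 195 counts in replicate 1 and 96 in replicate 2, a log2 ratio of -0.92 with a 95% counting interval from -1.29 to -0.56. The adjusted p was 3.5e-06 in the exact binomial test and 0.0282 in the edgeR exact test. The second call was lost with spike-in counts as the library size (edgeR adjusted p = 0.635), where the log2 ratio was -1.29, and with a fixed coefficient of variation of 0.2 (edgeR adjusted p = 1.0). The inner ear and epithelial markers moved with it, with summed levels of 339 TPM in the first library and 161 TPM in the second. All 6 were lower in replicate 2 by the binomial test, 3 of them also by the edgeR exact test. Among all genes tested 9.68% were lower by the binomial test and 0.625% by the edgeR exact test. Whether ear tissue in the dissections had a part in the Esrrb difference was not tested. Crym moved the same way, with 1593 and 600 counts, a log2 ratio of -1.31 and an adjusted p of 1.89e-08 in the edgeR exact test, and the part of those cells in it was not tested either.

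The other binomial calls were smaller or rested on few counts. Nr2f1 was lower in replicate 2 by 3176 against 2288 counts (log2 ratio -0.37, interval -0.45 to -0.29, binomial adjusted p = 3.5e-19), but its adjusted p with the dispersion was 0.746 (edgeR exact test). Nr2f2 (-0.15), Nr2c2 (-0.22) and Esrrg (-0.20) were lower by less than that on the log2 scale. Nr4a2 was higher in replicate 2 by 0.31 on the log2 scale with TMM scaling, a direction that turned to -0.06 when the spike-in counts set the library size. Spike-in scaling moved the median log2 ratio over all genes to -0.37, so it shifted every gene downward. Under it 19 receptor genes passed the binomial test, 18 of them lower in replicate 2. The share of all genes passing under spike-in scaling is not given here, so this count is not a result about the receptors. Nr5a2 had 7 and 25 counts, a log2 ratio of 1.92 with an interval from 0.69 to 3.39, and an adjusted p of 0.114 in the edgeR exact test. Its TPM, in which transcript length enters, differed less, 0.35 against 0.58. The leading transcript, Nr5a2-204, which retains an intron, was assigned 81.5% of the gene in replicate 1 and 44.6% in replicate 2. None of the 3 retinoid X receptor genes passed either test, in which their log2 ratios ran from -0.15 to -0.03. The binomial test called 20.4% of all genes tested (9.68% lower, 10.7% higher in replicate 2), the background for the list counts that follow. Of the 9 chaperone genes 6 were lower in replicate 2 by the binomial test, and 0 by the edgeR exact test, where 0 also had an unadjusted p below 0.05. Their log2 ratios ran from -0.22 to 0.03, and Hspa8 passed the binomial test at -0.05 on 59242 and 53302 counts. Around the other receptors, the binomial test called 3 of 7 liver X receptor targets (2 higher, 1 lower in replicate 2), 2 of 6 glucocorticoid response genes (1 in each direction), 1 of 8 PPAR targets (higher) and 0 of 11 clock genes. It called 1 of 12 coactivators, Med1, and 1 of 9 corepressors, both higher. Of 7 thyroid transport and deiodination genes tested, 4 were higher and 1, Crym, was lower, and Crym was the only gene of these lists called by the edgeR exact test.

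**Figure D3:**
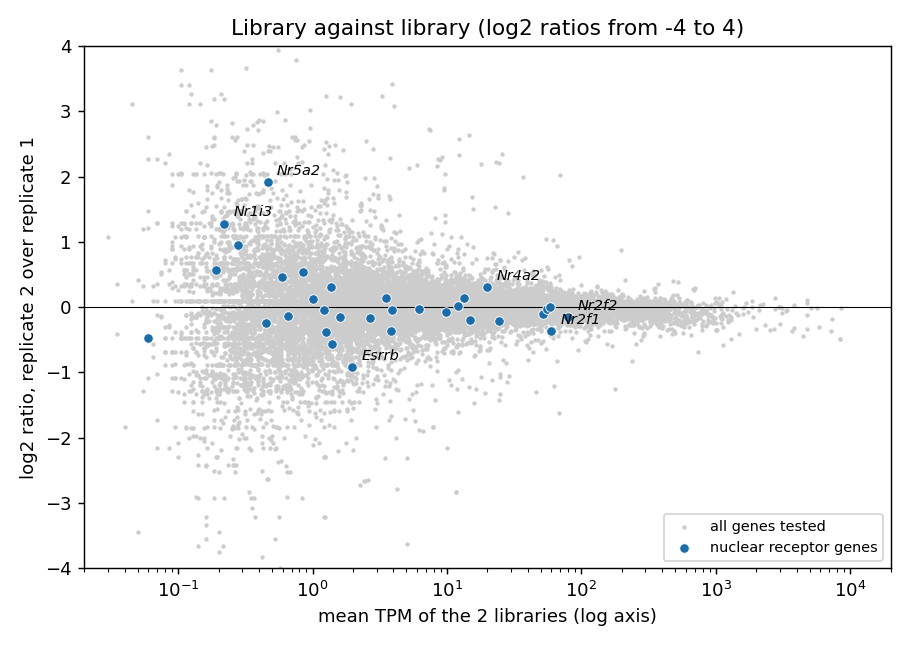
Log2 ratio of replicate 2 over replicate 1 (TMM-scaled counts) against mean TPM (log axis) for all 19209 genes tested (grey) and the 32 receptor genes tested (blue), with 51 grey points outside the axis limits. The receptors lie in the grey cloud, which widens to the left, with Esrrb at -0.92 and Nr5a2 at 1.92.

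Transcript shares were read from the authors' estimates of how each gene's TPM divides among its annotated transcripts. Of 20 detected receptor genes with more than 1 transcript, 19 had the same leading transcript in both libraries. The exception was Nr1h3, led by Nr1h3-201 in replicate 1 (75.8%) and by Nr1h3-202 in replicate 2 (60.4%) on 39 and 45 counts. All 12 genes at 5 TPM or more in both libraries kept the same leader. Thra divided mainly between its C-terminal variants. Thra-201, which encodes 492 residues, the length of the alpha-2 variant that does not bind hormone, took 67.4% and 69.9%. Thra-202, which encodes 410 residues, the length of the hormone-binding alpha-1 receptor, took 20.3% and 19.8%, and no other Thra transcript reached 10%. The non-binding form therefore exceeded the binding form in both libraries, and the difference was larger than the change between libraries.

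Single transcripts led the other high genes to different degrees. Nr2f6-201 held 97.2% and 97.5%, Esrra-201 82.7% and 82.6%, Nr2f2-201 80.4% and 79.2% and Esrrg-201 76.9% and 76.3%. Nr4a2-201 held 76.5% and 67.1%, Nr2c1-203 67.1% and 59.3% and Nr2f1-201 60.0% and 64.3%. No transcript held a majority of Nr1h2 or Nr2c2, led by Nr1h2-204 at 31.2% and 34.6% and by Nr2c2-201 at 48.2% and 42.0%. Nr3c1 was led by Nr3c1-208 (47.1% and 51.9%), a model of 488 codons. The 4 full-length models together held 46.8% and 40.6%, of which Nr3c1-203 of 792 codons held 34.6% and 24.5%. Rora was led by Rora-202 (467 residues) at 44.1% and 59.1%, with the non-coding Rora-204 at 32.4% and 21.4% and Rora-206, a target of nonsense-mediated decay, at 12.1% and 10.5%. Nr6a1-202 held 70.2% and 51.6% and Nr6a1-201 14.9% and 44.1%, and both encode 495 residues. Nr1d1-201 held 100% in each library. Nr4a3 was the only detected gene led by a non-coding transcript in both libraries, Nr4a3-204 at 72.8% and 68.7%.

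**Figure D4:**
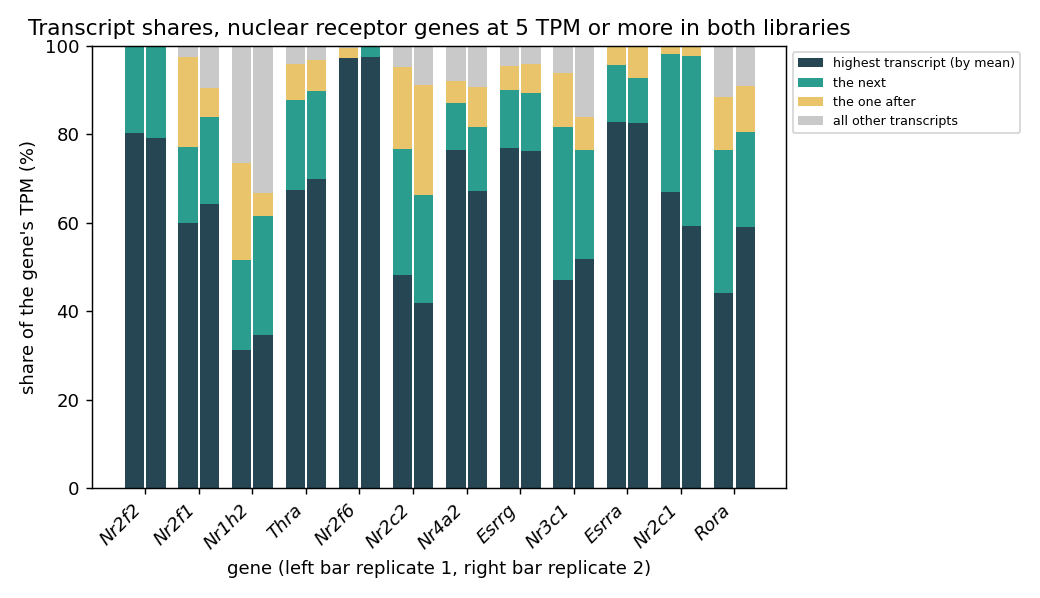
Share of each gene's TPM (percent) in its leading transcript, the next, the one after and all others, for the 12 receptor genes at 5 TPM or more in both libraries, replicate 1 on the left and replicate 2 on the right of each pair of bars. Nr2f6 is almost 1 transcript (97.2% and 97.5%), while the leader of Nr1h2 holds 31.2% and 34.6%.

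Overlapping genes make some of these values uncertain, since the sources used here do not say if strand was kept. Exons of 12 members overlapped exons of another gene, 10 of them on the opposite strand. Thra and Nr1d1 share 263 nt of exon at their ends, and within that stretch fragments of Thra (55.8 and 54.6 TPM) and of Nr1d1 (0.96 and 1.06 TPM) cannot be told apart without strand. The posterior SD of the Nr1d1 count was 1.74 and 1.94 fragments against counts of 47.9 and 48.6. Nr1i3 shares 3304 of its 4414 nt of exon with Tomm40l (22.5 and 25.5 TPM), and its counts of 6.71 and 16.1 carried posterior SDs of 2.69 and 3.61. Nr2c2 shares 4590 nt with Mrps25 (51.8 and 51.2 TPM) and Nr2f6 shares 1622 nt with Ocel1 (4.78 and 5.44 TPM). Nr2f2 shares 643 nt with B130024G19Rik (11.4 and 8.91 TPM). For 33 of the 39 members the posterior SD was 0 in both libraries.

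The sequence at the start of the leading transcript was compared because the rule that chose the genes used no sequence. RefSeq windows of 300 bases (250 before and 50 after the start, GRCm38.p6) were held for 36 of the members, and for 24 of them the start lay within 100 nt of the leading transcript's start. The measure was the number of CG dinucleotides, a motif that reads the same on both strands, over the number that the base composition gives. Of the 32851 windows in the table, 35.8% had a ratio of 0.6 or more, with a median of 0.384. The ratio reached 0.6 in 3 of 3 genes at 10 TPM or more (0.709 to 1.035), in 7 of 11 between 1 and 10 TPM or across the threshold, and in 1 of 10 below 1 TPM in both libraries. The medians were 0.781, 0.77 and 0.411, and the exception among the low genes was Thrb at 0.946. The distance limit left out 5 genes at 10 TPM or more and 5 below 1 TPM that have a window, among them Nr2f2 (0.109), Nr2c2 (0.599), Ppara (0.736) and Pparg (0.909). Over all windows held, the ratio reached 0.6 in 6 of 8, 9 of 13 and 3 of 15 genes of these level groups, with medians of 0.749, 0.77 and 0.427. The detected genes Esrrb (0.318) and Nr1h3 (0.277) had low ratios, so the levels and the ratio overlapped between the groups. The high and low ends are printed as examples on the gene's own strand, with every CG in capitals. The Nr2f6 window is chr8:71381903-71382202 (minus strand), and that of Nr1i2 is chr16:38294775-38295074 (minus strand).
Nr2f6: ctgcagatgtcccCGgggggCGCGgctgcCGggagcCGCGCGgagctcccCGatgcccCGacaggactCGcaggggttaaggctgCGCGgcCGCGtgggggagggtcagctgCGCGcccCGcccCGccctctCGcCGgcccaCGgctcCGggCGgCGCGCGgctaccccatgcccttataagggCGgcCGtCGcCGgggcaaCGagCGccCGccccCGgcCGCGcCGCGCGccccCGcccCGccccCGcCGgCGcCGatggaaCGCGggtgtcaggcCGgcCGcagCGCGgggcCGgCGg
Nr1i2: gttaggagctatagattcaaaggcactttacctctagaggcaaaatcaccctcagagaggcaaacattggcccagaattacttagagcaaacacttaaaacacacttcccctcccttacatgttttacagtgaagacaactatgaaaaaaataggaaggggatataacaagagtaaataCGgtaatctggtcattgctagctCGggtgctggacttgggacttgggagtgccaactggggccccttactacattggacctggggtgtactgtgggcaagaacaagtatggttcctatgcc
The Nr2f6 window held 53 CG dinucleotides at 82.7% G and C (ratio 1.035), and the gene stood at 53.1 and 49.9 TPM. The Nr1i2 window held 2 at 45.3% (ratio 0.13), and that gene had 1 count and 0 counts. These are descriptions of windows, not measurements of methylation or promoter activity.

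**Figure D5:**
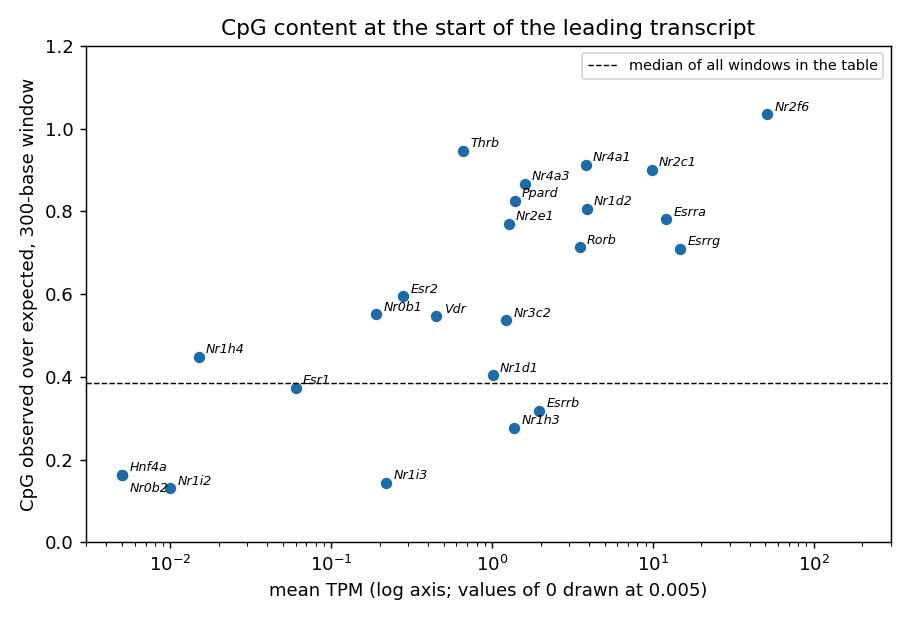
CG observed over expected in the 300-base window at the transcript start against mean TPM (log axis, values of 0 drawn at 0.005) for the 24 receptor genes whose window lies within 100 nt of the leading transcript's start, with the median over all windows (0.384) dashed. The 3 genes above 10 TPM that met this limit lie at 0.709 or more, while Thrb at 0.946 lies above the other genes below 1 TPM and Esrrb at 0.318 lies low among the detected genes.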

How the data were processed

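RNA longer than 200 nt was measured in both libraries, started, per the labels, from 10 ng of RNA extracted by the mirVana method with ERCC spike-ins added. A manual for a SMARTer kit is among the linked protocols. The authors deposited 1 gene table and 1 transcript table per library on mm10 with GENCODE M4. Aligner and quantifier: not given in the sources used here. As deposited, an expected count is an estimated number of fragments of a gene that need not be whole, so it was rounded for tests. The deposited TPM values are scaled to a fixed total over all entries, spike-ins included. Spike-ins held 8.39% and 10.9% of the TPM of replicates 1 and 2. The transcript share is, per the file headers, a percent of the gene's TPM.

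Names came from GENCODE M21, matched on the Ensembl identifier for 42462 of 43346 genes. Prmt1 of the coactivator list was not matched. Entries that name no gene held 0.000107% and 0.000114% of counts and were left out.

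Libraries were compared with an exact binomial test in R 4.3.3 and the exact test of edgeR 4.0.16 (two-sided, TMM scaling, 10 or more summed counts, Benjamini-Hochberg over all genes, threshold 0.05). The code of both was tried on simulated counts that held counting error only. That trial had no spread between libraries, so it cannot show how often either test calls falsely in these data. A quasi-likelihood test needs replicates within each side, and each side has 1 library. P-values compare the 2 libraries, and the dispersion of the edgeR test came from the same 2 libraries. Size factors of DESeq2 1.42.0 were an alternative. Tables were handled in Python 3.11.15 with pandas 2.3.3.

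The members and lists were chosen with earlier results of these data known. Named are all members, and from each list the 4 highest genes, the lowest and those passing the edgeR exact test. Some genes that this rule names are not reported here. The liver genes stand beside Ttr as markers. A few more list genes (Ppargc1a, the deiodinases, thyroid response and vitamin D enzyme genes) were named after their values were seen.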

Additional observations from a re-analysis of the deposited data

How the results depend on the processing

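The number of receptor genes detected was 21 and ranged from 16 at a threshold of 2 TPM to 25 at 0.5 TPM. It was 25 with the posterior mean TPM, 22 with TPM rescaled over Ensembl genes, and 22 without replicate 1 and without replicate 2. Mean levels differed by more than 1 SD for 21 of 39 genes with the posterior mean TPM and for 16 of 39 with the rescaled TPM. With 2 libraries, leaving either out cannot move a mean by 1 SD, so it does not bear on the levels.

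With ERCC spike-in counts as the library size, 19 receptor genes passed the binomial test (18 lower and 1 higher in replicate 2). In the edgeR exact test 0 passed. That scaling lowered the ratio of every gene, and the share of all genes passing under it is not given here. Under that scaling the log2 ratio of Esrrb was -1.29 with an adjusted p of 0.635 (edgeR exact test), and the common coefficient of variation was 21.7%. A fixed coefficient of variation of 0.2 also gave 0 calls. Other size factors and filters gave 6 or 7 binomial calls and 1 edgeR call, with adjusted p for Esrrb from 0.0248 to 0.0318 in the edgeR exact test. The leading transcript was the same for 12 of 12 genes at 5 TPM, fewer than the main 19 because fewer genes enter.

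Counting every promoter window held, an alternative chosen after seeing the data, gave 6 in place of 3 genes at a CG ratio of 0.6 or more in the highest level group and 3 in place of 1 in the lowest.

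No paired analysis was possible because both libraries belong to 1 group. A DESeq2 test was not run, since 1 library on each side leaves it no dispersion to estimate. Depth limits the genes below 1 TPM, several of which rest on fewer than 10 counts.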
